A study of Mus musculus with 9 samples.

Results

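The replication-dependent histone genes are the clustered genes that supply the bulk of new histone protein while DNA is copied. They were taken as every gene whose symbol begins with Hist1h, Hist2h, Hist3h or Hist4h and that had at least 1 count in any library. Of 54146 genes in the deposited table, 69 carry such a symbol and 67 had a count, out of 34500 genes with a count in all. The 67 genes are 5 of H1, 18 of H2A, 19 of H2B, 12 of H3 and 13 of H4, and Hist1h1t and Hist1h2aa were at 0 in every library.

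Messenger RNA had been sequenced from T follicular helper (Tfh) cells, the CD4 T cells that help B cells in germinal centres, sorted as CD4+CXCR5+PD1+ from mouse Peyer's patches, the lymphoid follicles of the small intestine. Mice with 1 mutant and 1 wild-type allele of Tgfbr1, which encodes a receptor kinase for TGF-beta, gave 5 libraries (WT/mut replicates 6, 7, 8, 9 and 10). Wild-type littermates gave 4 libraries (WT replicates 1, 3, 4 and 5). The sources used here do not say what the mutation is, how old the mice were or whether each library is 1 animal, so the p-values below measure the spread between libraries.

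Replication-dependent histone genes are transcribed in S phase by machinery held at the histone locus body, where Npat is the central coactivator. Their messages typically have no introns and, in dividing cells, mostly end at a short stem-loop that is cut by the U7 small nuclear ribonucleoprotein and bound by Slbp, in place of a poly(A) tail. The libraries were made by a low-input method from poly(A) RNA, and such methods capture tailless messages poorly, so the levels below describe the histone RNA that entered these libraries. What share of all histone RNA that was cannot be read from them.

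The stem-loop was looked for in the GENCODE M21 transcripts (mouse build GRCm38) with the histone stem-loop consensus. Of the 67 genes 45 had a match. In 14 of the 22 without a match the longest annotated transcript has at most 450 bases. A stem-loop past an annotated end could not be found, so no match does not mean no stem-loop. These models give 62 of the 67 genes 1 exon and the other 5, all H2B genes, more than 1. These sites are shown because their bases separate H4 from the other classes. The capitals mark the stem-loop, with 5 bases before it and up to 5 after it where the annotated transcript reaches that far.
Hist1h2ap (H2A): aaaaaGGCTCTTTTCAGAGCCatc
Hist3h2a (H2A): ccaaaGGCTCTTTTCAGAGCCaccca
Hist1h1c (H1): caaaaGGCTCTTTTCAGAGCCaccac
Hist1h3e (H3): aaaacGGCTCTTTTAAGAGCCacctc
Hist2h2ac (H2A): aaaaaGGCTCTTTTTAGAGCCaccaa
Hist1h4d (H4): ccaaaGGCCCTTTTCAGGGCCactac
Hist1h4j (H4): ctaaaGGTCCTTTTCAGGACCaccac
The matched genes of H1, H2A, H2B and H3, 33 in all, had a stem that opens with GGCTC. The 12 matched H4 genes opened with GGCCC in 10 cases and GGTCC in 2. The form printed for Hist1h2ap, with the core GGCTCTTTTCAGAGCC, was the commonest and occurred in 26 genes, and the H4 form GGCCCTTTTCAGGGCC occurred in 7.

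Promoters are shown for 3 of the more abundant members because the classes differed in their promoter letters as well. The windows run from 250 bases before to 50 bases after the RefSeq start (GRCm38.p6), and 59 of the 67 genes had one. The capitals mark CCAAT (the CCAAT box), TATAAA (the TATA box) and ATTTGCAT (the octamer). Each was searched on both strands, and the first reads as ATTGG when it lies on the opposite strand. In its reverse form the octamer reads as ATGCAAAT. No overlap between these motifs was found in the 3 windows.
Hist1h2ap, chr13:21833426-21833725, minus strand: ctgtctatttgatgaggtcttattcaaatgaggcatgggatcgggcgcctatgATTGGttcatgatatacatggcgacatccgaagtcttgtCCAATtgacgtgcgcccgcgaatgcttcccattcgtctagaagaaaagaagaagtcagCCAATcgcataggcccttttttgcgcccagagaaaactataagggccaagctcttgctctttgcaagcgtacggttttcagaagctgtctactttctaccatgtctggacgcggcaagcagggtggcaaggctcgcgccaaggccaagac
Hist1h2ah, chr13:22035594-22035893, minus strand: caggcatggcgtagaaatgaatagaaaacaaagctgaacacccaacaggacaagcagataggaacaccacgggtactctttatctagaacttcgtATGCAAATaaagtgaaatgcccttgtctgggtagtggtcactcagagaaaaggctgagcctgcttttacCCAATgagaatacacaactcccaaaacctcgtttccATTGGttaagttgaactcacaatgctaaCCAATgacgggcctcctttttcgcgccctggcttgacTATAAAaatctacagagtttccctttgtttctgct
Hist1h4d, chr13:23581318-23581617, plus strand: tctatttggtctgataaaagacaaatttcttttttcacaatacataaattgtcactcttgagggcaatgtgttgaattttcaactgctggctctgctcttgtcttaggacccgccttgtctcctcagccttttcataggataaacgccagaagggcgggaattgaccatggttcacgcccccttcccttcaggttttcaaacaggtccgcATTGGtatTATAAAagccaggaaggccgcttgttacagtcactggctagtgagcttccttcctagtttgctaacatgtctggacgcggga
CCAAT occurred in all 47 H1, H2A, H2B and H3 promoters, with a median of 3 sites each, and in 3 of 12 H4 promoters. Hist1h4d, printed above with an ATTGG, is among those 3, so the printed windows do not show this difference between classes. Of all 32851 RefSeq promoter windows of this length, 37.4% held it. TATAAA occurred in 33 of the 59 histone promoters (55.9%) and in 13.6% of all windows. The octamer ATTTGCAT occurred in 6 of 17 H2A and 6 of 16 H2B promoters. It was in no H1, H3 or H4 promoter, and in 1.74% of all windows. Neighbouring H2A and H2B genes that start close together on opposite strands have overlapping windows, so the same site can count for both. Hist1h2ae and Hist1h2bg, for example, hold the same octamer and the same TATAAA, so these promoter counts are not counts of separate sites. A match of letters is a description and not evidence that a factor binds.

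Histone messages were a small part of each library, and H2A made up the largest share of them in every library. Totals ran from 29488783 to 43872686 counts per library, of which the histone genes held 2405 to 5309. The Tfh marker list, which includes Icos and Il21, summed to 6547 to 8132 CPM (counts scaled to library size with edgeR's TMM factors) in every library. Tgfbr1 itself did not separate the genotypes, at 73.6 ± 16.5 CPM in WT/mut (SD, n = 5) and 77.0 ± 20.2 in WT (SD, n = 4), which is no check of an allele that is still transcribed. WT/mut 7 stood apart in that 30143 genes had a count in it, against 17904 to 20264 in the other 8 libraries.

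Plasma cell marker messages summed to 420 to 1409 CPM in WT/mut and 104 to 396 CPM in WT, and red cell marker messages to 401 to 870 and 98.5 to 282 CPM, with no overlap between genotypes in either. Of 8 tested plasma cell markers 6 were higher in WT/mut at an unadjusted p under 0.05, as were 5 of 5 red cell markers, against 5.69% of all genes tested. After adjustment edgeR called none of these markers. DESeq2 called 4 plasma cell and 5 red cell markers, among 486 of 34361 genes that it called in all, where edgeR called 19 of 15521. B cell marker messages overlapped between genotypes, at 249 to 565 CPM in WT/mut and 121 to 315 CPM in WT. Intestinal epithelial markers overlapped too, at 43.4 to 358 and 178 to 672 CPM. All 9 B cell markers had an edgeR log2 fold change above 0 (median 0.63), against 50.2% of all genes tested. At an unadjusted p under 0.05, 3 of the 9 were higher, and edgeR called none after adjustment. Of 10 intestinal epithelial markers 9 were below 0, with 2 lower at that p (6.46% of all genes tested). By edgeR the markers of lowest p in these lists had log2 fold changes of 2.86 for Jchain and 3.29 for Igha (plasma cell), and of 1.59 for Hbb-bs and 1.498 for Alas2 (red cell). Spib and Cr2 (B cell) stood at 1.96 and 1.302, and Fabp1 and Cdh17 (intestinal epithelium) at -1.93 and -1.74. The part of these messages in the histone values was not tested.

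The 67 genes summed to 94.2, 125, 90.5, 189 and 116 CPM in WT/mut 6 to 10, and to 76.1, 124, 115 and 80.1 CPM in WT 1, 3, 4 and 5. WT/mut 9 was the highest library and the remaining 4 WT/mut libraries lay within or close to the WT range. The group means were 123 ± 39.7 CPM (SD, n = 5) and 98.9 ± 24.3 CPM (SD, n = 4), a log2 ratio of 0.31. Without WT/mut 9 the WT/mut mean was 106 ± 16.6 CPM (SD, n = 4) and the log2 ratio 0.12. Leaving out each library in turn gave log2 ratios from 0.12 to 0.44. Without both WT/mut 7 and WT/mut 9, the highest WT/mut libraries by this sum, the log2 ratio was 0.02. That pair was chosen after seeing the data.

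H2A, which pairs with H2B in the nucleosome core, held 51.7% of the summed histone CPM, and between 44.1% and 56.9% in each single library. H4 and H1 followed with 15.8% each, then H2B with 14.0% and H3 with 2.70%. Summed H2A was 49.98, 61.6, 48.4, 107 and 60.7 CPM in WT/mut 6 to 10 and 42.3, 62.7, 50.6 and 37.9 CPM in WT 1, 3, 4 and 5. A single library, WT/mut 9, was above the WT maximum, and the log2 ratio of means was 0.44 with it and 0.20 without it. For the other classes the log2 ratio of means was 0.30 for H1, 0.02 for H2B, 0.11 for H3 and 0.22 for H4, and the genotypes overlapped in all 5 classes. WT/mut 9 was the highest library for H1, H2A, H2B and H4, and WT/mut 10 for H3.

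**Figure D1:**
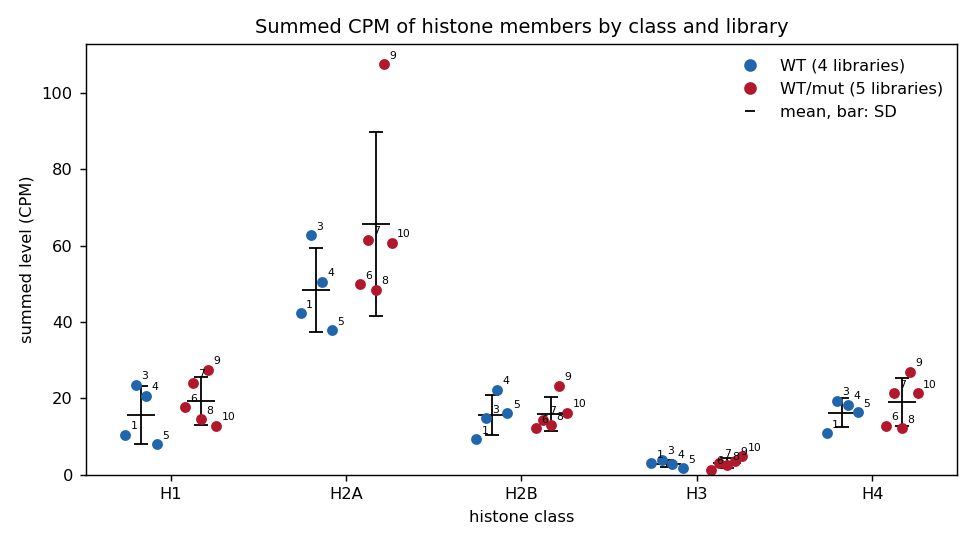
Summed CPM of the histone genes of each class (vertical axis, CPM) in each library, with WT in blue and WT/mut in red, replicate numbers beside the points, and the mean with its SD in black. The genotypes overlap in every class, and the H2A sum of WT/mut 9 (107 CPM) lies above the 37.9 to 62.7 CPM of the other 8 libraries.

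No histone gene was called different between the genotypes. Of the 67 genes 36 had enough counts to be tested, and edgeR's quasi-likelihood test called 0 of them at an adjusted p under 0.05, where it called 0.122% of all 15521 genes tested. At an unadjusted p under 0.05 there was 1 of the 36 (2.78%), against 12.2% of all genes tested. DESeq2 called 0, with 2 of 67 at an unadjusted p under 0.05 (8.16% of all 34361 genes in that fit). With limma-voom 0 were called and 0 had an unadjusted p under 0.05 (13.4% of all 15521 genes). None of the 36 had CPM ranges that did not overlap between genotypes, against 4.46% of all genes tested. Without WT/mut 7 and WT/mut 9, a pair chosen after seeing the data, edgeR again called 0, with 0 at an unadjusted p under 0.05.

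The log2 fold change, WT/mut over WT, was above 0 for 23 of the 36 tested genes, against 50.2% of all genes tested. Its median was 0.14 over the histone genes and 0.00 over all genes. By class it was above 0 for 4 of 5 H1 genes (median 0.81), 9 of 10 H2A genes (0.54), 5 of 10 H2B genes (0.01), 0 of 2 H3 genes (-0.26) and 5 of 9 H4 genes (0.05). These counts turned on single libraries. Without WT/mut 9, 16 of 32 tested genes were above 0 and the median was -0.01, and without WT 1, 21 of 42 were above 0 and the median was 0.01. Other libraries moved them the other way. Without WT 3, 30 of 38 were above 0 (median 0.28), and without WT 4, 30 of 41 (median 0.25). With a covariate for plasma cell messages the median was 0.58. That covariate, the percent of counts, ran from 0.0427 to 0.146 in WT/mut and from 0.00998 to 0.0391 in WT. Since it did not overlap, it and genotype cannot be told apart in that fit. The 31 untested genes reached at most 97 counts over all libraries and held 3.44% of the summed histone CPM.

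**Figure D2:**
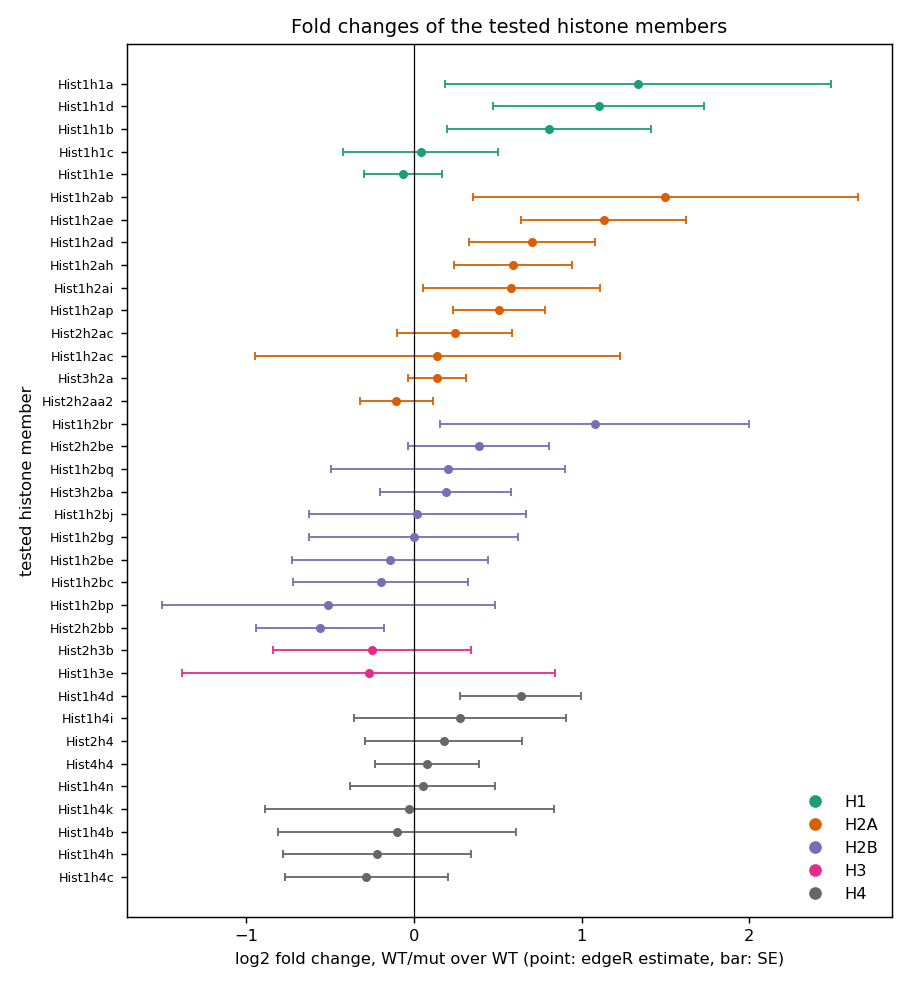
edgeR log2 fold change, WT/mut over WT (horizontal axis), of the 36 tested histone genes (vertical axis), with its SE as a bar and the class as the colour. The estimates run from -0.56 to 1.499, and 9 of 10 H2A genes lie right of 0 with no gene called at an adjusted p under 0.05.

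Among the H2A genes, Hist1h2ap was the most abundant histone message, at 15.9 CPM over the 9 libraries (33.0 CPM per kb of exon). It measured 13.8, 17.8, 12.6, 30.7 and 16.9 CPM in WT/mut 6 to 10 and 10.2, 17.3, 13.6 and 10.6 CPM in WT 1, 3, 4 and 5. WT/mut 9 was above every other library and the remaining 4 WT/mut libraries overlapped with WT. On the log2 scale the fitted difference was 0.51 ± 0.27 (SE; edgeR, adjusted p = 0.469), and 0.25 without WT/mut 9.

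Hist1h2ae, another H2A gene of the same cluster, had the lowest p of the histone genes. It measured 5.95, 8.94, 4.06, 20.9 and 6.19 CPM in WT/mut 6 to 10 and 2.47, 6.09, 5.59 and 2.63 CPM in WT 1, 3, 4 and 5. Again WT/mut 9 was far above the rest, while WT 1 and WT 5 were the lowest and WT/mut 6 and WT/mut 8 lay inside the WT range. By edgeR the log2 fold change was 1.13 ± 0.49 (SE), with an unadjusted p of 0.0419 and 0.393 after adjustment. It was 0.59 without WT/mut 9.

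Hist1h2ad, an H2A gene that was also highest in WT/mut 9, measured 2.38, 3.20, 1.99, 3.99 and 2.74 CPM in WT/mut 6 to 10 and 1.39, 2.54, 1.92 and 1.15 CPM in WT 1, 3, 4 and 5. All 5 WT/mut libraries were above 3 of the 4 WT libraries, and WT 3 lay among them. The edgeR estimate was 0.70 ± 0.38 (log2, SE), with 0.465 as the adjusted p.

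The 2 most abundant H2A genes outside the Hist1 cluster were steadier across libraries. Hist3h2a, on chromosome 11, measured 9.86, 7.44, 9.21, 9.54 and 10.3 CPM in WT/mut 6 to 10 and 8.58, 8.27, 8.32 and 8.49 CPM in WT 1, 3, 4 and 5. Its highest library was 1.39-fold its lowest, the smallest such ratio among the 23 histone genes with a mean of at least 1 CPM. Its exons overlap those of Trim17 on the same strand, and the part of Trim17 in these values was not tested. WT/mut 9 was not set apart for Hist3h2a. Between the genotypes it differed by 0.14 ± 0.17 (log2, SE; edgeR, adjusted p = 0.762).

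Hist2h2aa2, on chromosome 3, measured 6.98, 7.34, 8.22, 9.93 and 8.63 CPM in WT/mut 6 to 10 and 10.2, 10.9, 7.97 and 6.32 CPM in WT 1, 3, 4 and 5. WT 3 and WT 1 were the highest libraries here, and the genotypes overlapped throughout. Its adjusted p by edgeR was 0.871, at a log2 fold change of -0.10 ± 0.22 (SE). The name follows the deposited table, where the identifier ENSMUSG00000064220.6 is called Hist2h2aa2, while GENCODE M21 calls it Hist2h2aa1.

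Linker histone H1 binds the DNA between nucleosomes. Hist1h1e measured 6.80, 6.97, 6.50, 7.34 and 5.92 CPM in WT/mut 6 to 10 and 6.43, 8.94, 8.15 and 4.52 CPM in WT 1, 3, 4 and 5, so that every WT/mut library lay inside the WT range. Hist1h1c was as abundant in both genotypes, at 4.83 ± 1.35 CPM in WT/mut (SD, n = 5) and 4.70 ± 3.17 CPM in WT (SD, n = 4). Its WT libraries fell into a pair at 2.12 and 1.85 CPM (WT 1 and WT 5) and a pair at 6.83 and 8.00 CPM (WT 3 and WT 4).

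Hist1h1b, the linker histone H1.5, measured 3.04, 2.64, 1.51, 8.94 and 2.03 CPM in WT/mut 6 to 10 and 1.17, 4.15, 2.04 and 0.923 CPM in WT 1, 3, 4 and 5. WT/mut 9 was the highest library and the other 4 WT/mut libraries lay inside the WT range. Its log2 fold change of 0.81 ± 0.61 (SE; edgeR, adjusted p = 0.592) was 0.16 without WT/mut 9. Hist1h1d had the widest spread of the 23 genes, 13.4-fold from lowest to highest, and its highest library was WT/mut 7 at 8.66 CPM, the library with the largest number of detected genes.

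H2B genes were lower than H2A genes and leaned to neither genotype. Hist2h2be measured 3.28, 1.76, 3.63, 5.45 and 3.56 CPM in WT/mut 6 to 10 and 1.55, 1.85, 4.60 and 2.82 CPM in WT 1, 3, 4 and 5. Hist1h2bc averaged 2.57 ± 1.06 CPM in WT/mut (SD, n = 5) and 2.95 ± 2.35 CPM in WT (SD, n = 4), with WT 4 the highest at 6.34 CPM. Hist3h2ba averaged 2.62 ± 0.67 and 2.30 ± 1.09 CPM. The genotypes overlapped for each of these genes.

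Hist2h2bb had the lowest p among the genes with a negative fold change. It measured 1.38, 1.79, 1.14, 1.96 and 2.08 CPM in WT/mut 6 to 10 and 1.49, 2.49, 2.42 and 3.46 CPM in WT 1, 3, 4 and 5. WT 1 lay among the WT/mut libraries and the other 3 WT libraries were above all of them. Its estimate was -0.56 ± 0.38 (log2, SE; edgeR, adjusted p = 0.550). Hist1h2bp, the other H2B gene named by this rule, averaged 0.199 ± 0.222 CPM in WT/mut (SD, n = 5) and 0.281 ± 0.107 CPM in WT (SD, n = 4), a log2 fold change of -0.51 ± 0.99 (SE).

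H3 genes were scarce. Hist2h3b, the highest of them, measured 0.481, 0.533, 1.03, 1.42 and 1.97 CPM in WT/mut 6 to 10 and 2.28, 1.29, 1.02 and 0.6001 CPM in WT 1, 3, 4 and 5, so that each genotype spanned most of the range. Hist1h3f and Hist1h3a averaged 0.321 ± 0.397 and 0.247 ± 0.238 CPM in WT/mut (SD, n = 5) and 0.286 ± 0.266 and 0.340 ± 0.272 CPM in WT (SD, n = 4), and neither had enough counts to be tested. For Hist2h3b edgeR gave -0.25 ± 0.59 (log2, SE; adjusted p = 0.888).

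Histone H4 pairs with H3. Hist1h4d measured 4.90, 7.97, 3.79, 11.1 and 4.38 CPM in WT/mut 6 to 10 and 2.63, 4.96, 4.54 and 4.39 CPM in WT 1, 3, 4 and 5. WT/mut 9 and WT/mut 7 were above every WT library and WT 1 was below every other library. By edgeR the genotypes differed by 0.64 ± 0.36 (log2, SE; adjusted p = 0.487). Hist4h4, the single gene on chromosome 6, averaged 3.55 ± 0.87 CPM in WT/mut (SD, n = 5) and 3.36 ± 0.85 CPM in WT (SD, n = 4). Hist1h4n averaged 3.11 ± 1.60 and 3.00 ± 0.89 CPM, and Hist1h4c 0.824 ± 0.194 and 1.00 ± 0.288 CPM.

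Among histone genes with 3 or more counts in all, 2 had counts in 1 genotype only, and neither was tested. Below that cut, Hist1h2bn had 1 count, in WT/mut 10. The share of all genes with counts in 1 genotype only was not computed. Hist1h2aj, annotated as an unprocessed pseudogene, had 46 counts in WT/mut, 36 in WT/mut 9 and 10 in WT/mut 8, and 0 in WT. It was at 0 in WT/mut 6, 7 and 10. Against a floor of 3 counts over the WT group, its pooled WT/mut counts were at least 13.8-fold higher. That bound, like the next, covers counting error only and not the spread between libraries. Hist2h2aa1 had 13 counts, all in WT/mut 10, which is at least 3.90-fold higher against the same floor. Both share most of their sequence with other H2A genes: 93.1% of the 50-base stretches of Hist1h2aj and 100% of those of Hist2h2aa1 also occur in another histone gene.

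That sharing reached most histone genes. A 50-base stretch of the transcript recurred in another histone gene for 62 of the 67, and for H2A the median gene shared 79.3% of its stretches. The deposited estimates split such reads, and 64 of the 67 genes had a value that was not whole in at least 1 library. Only Hist1h1a, Hist1h1b and Hist2h2be were whole in all 9. The exons of 24 of the 67 genes also overlap another annotated gene, and the kit does not keep strand. Reads shared within a class therefore make values of single histone genes less certain than class sums. Reads of an overlapping gene outside the class can enter a class sum as well. The exons of Hist1h1e (H1) and Hist1h2be (H2B), for example, overlap.

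A few genes carried most of the signal. The 6 highest, Hist1h2ap, Hist3h2a, Hist2h2aa2, Hist1h2ah, Hist1h2ae and Hist1h1e, held 49.3% of the summed CPM, and the highest 22 held 90.4%. By cluster, 53 Hist1 genes on chromosome 13 held 67.8%, 10 Hist2 genes on chromosome 3 held 18.9%, 3 Hist3 genes on chromosome 11 held 10.2%, and Hist4h4 held 3.09%. Per kb of exon, Hist1h2ap (33.0 CPM per kb) and Hist1h2ah (20.1 CPM per kb) led, ahead of Hist2h2aa2 (14.5 CPM per kb) and Hist1h2ae (9.92 CPM per kb).

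Where histone genes lie head to head, the H2A gene was the higher in most pairs per kb of exon. Starts within 500 bases of each other on opposite strands were found for 14 pairs of the 69 genes, each made of 1 H2A and 1 H2B gene, with 172 to 305 bases between them. Per kb of exon the H2A gene was higher in 11 pairs and the H2B gene in 3, while by CPM the H2A gene was higher in 8. Some of these pairs rest on few counts or on a pseudogene. Hist3h2bb-ps and Hist1h2aj, each in a pair counted for H2A, are annotated as pseudogenes, and Hist1h2aj was above Hist1h2bm in only 2 libraries. Hist1h2bn, below Hist1h2ak, had 1 count, and Hist1h2ba, counted for H2B, had 2 counts beside Hist1h2aa at 0. The per-kb values rest on the annotated exon length, which is 2212 bases for Hist1h2br and 2015 bases for Hist1h2bq, each annotated with 3 exons. Hist1h2ap stood 169-fold above Hist1h2br per kb across 235 bases, and Hist1h2ah 66.0-fold above Hist1h2bk across 301 bases. The H2A gene was the higher in all 9 libraries in both pairs. The reverse held for Hist1h2bc, which was above Hist1h2ac in 9 of 9 libraries, at 2.37 against 0.133 CPM per kb.

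**Figure D3:**
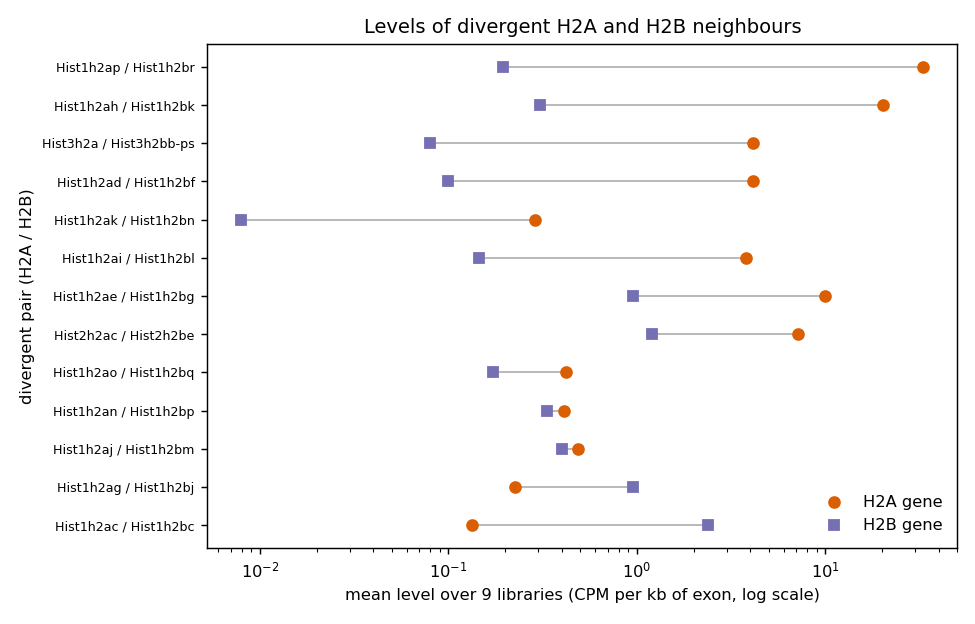
Mean level over 9 libraries (horizontal axis, CPM per kb of exon, log scale) of the H2A gene (orange circle) and the H2B gene (purple square) of each head-to-head pair with both genes above 0 (vertical axis, 13 pairs). The H2A gene is higher in 11 of these pairs, and Hist1h2ag and Hist1h2ac are the H2A genes that lie below their neighbour.

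The annotated end of the transcript varied between the genes. In 22 genes the annotation runs 100 bases or more past the stem-loop, and these genes held 44.8% of the summed CPM, with a median of 0.675 CPM per kb of exon. In 23 genes it stops less than 100 bases past it (33.9% of the sum, median 0.402 CPM per kb). In 22 no match was found (21.3%, median 0.383 CPM per kb). For 14 of those 22 the longest annotated transcript has at most 450 bases, and a stem-loop past its end could not be found. The group that ends just past the stem-loop includes Hist1h2ap, the highest gene, whose annotation stops 3 bases after the site printed above. The ranges of the 3 groups overlap widely, and whether any of these messages was polyadenylated was not measured. The annotated tail is part of the exon length, so at equal CPM a longer tail gives a lower level per kb.

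**Figure D4:**
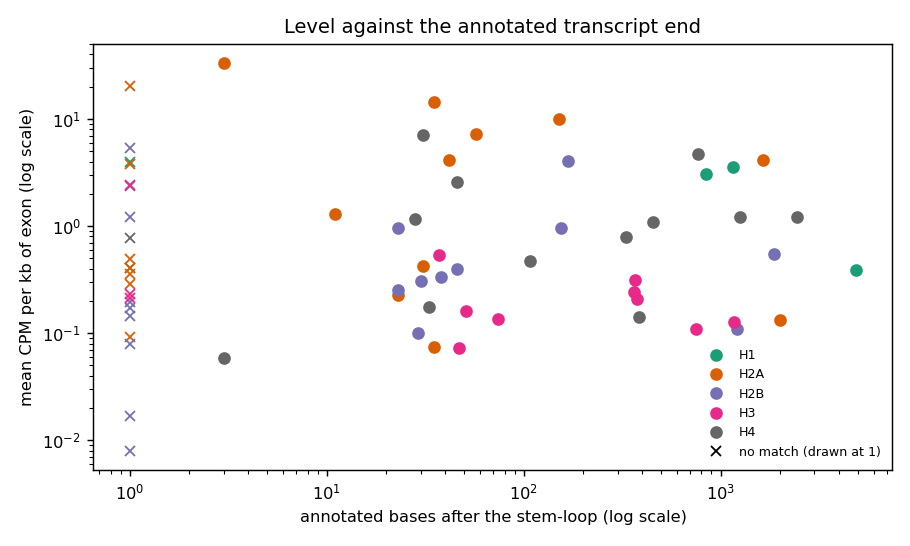
Mean level over 9 libraries (vertical axis, CPM per kb of exon, log scale) of each of the 67 histone genes against the annotated bases after its stem-loop (horizontal axis, log scale), with class as the colour and genes with no match drawn as crosses at 1. Low genes occur at short and long tails alike. The highest level is 33.0 CPM per kb under 100 bases past the stem-loop (Hist1h2ap, 3 bases) and 9.92 CPM per kb at 100 bases or more. A longer tail adds to the exon length that divides the level.

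Within each genotype the libraries differed widely. Of the 36 tested genes, 16 were highest in WT/mut 9, while 11 were lowest in WT 5 and 10 in WT 1. Genes for mitosis shared the highest and the lowest library with the histone genes, but not the order between. That list of 29 genes summed to 495 CPM in WT/mut 9, 172 CPM in WT 1 and 271 CPM in WT 5, which was second highest here and second lowest for the histone genes. B cell markers were also highest in WT/mut 9, at 565 CPM against at most 345 CPM elsewhere, with Spib at 10.1 CPM. By summed CPM the DNA replication list put WT/mut 9 at rank 3 of 9 libraries and the replacement histones at rank 8. With the replication genes weighted alike, as their mean log2 CPM, WT/mut 9 was the highest library at 4.93, against at most 4.68 elsewhere. The part of B cells or of dividing cells in the histone level of WT/mut 9 was not tested, and in bulk RNA fewer cells of a type and less RNA per cell cannot be told apart.

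**Figure D5:**
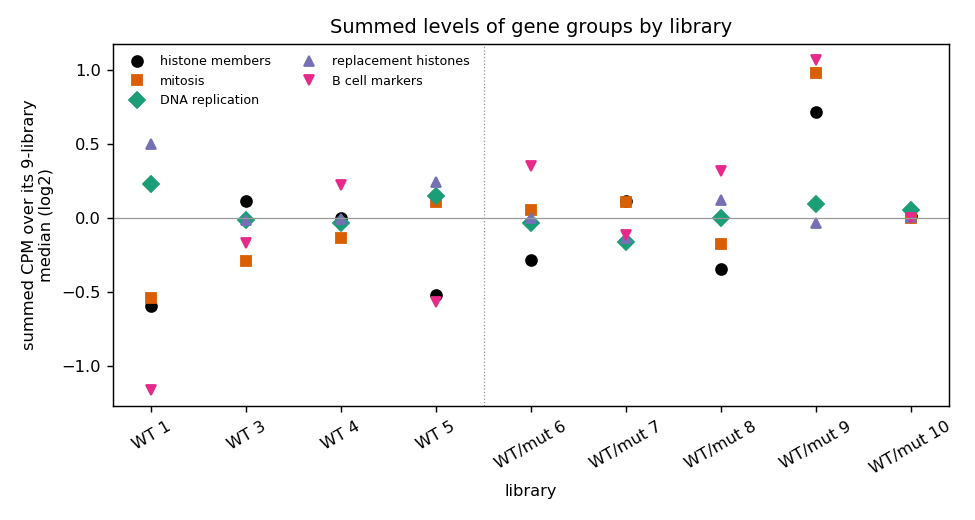
Summed CPM of 5 gene groups in each library (horizontal axis) as a log2 ratio to the median of the 9 libraries (vertical axis). By this sum, histone genes, mitosis genes and B cell markers are at their highest in WT/mut 9 and DNA replication genes and replacement histones are not, while the mean log2 CPM of the replication genes (4.93) is also highest there.

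Genes that make and process histone messages showed no shared direction. Of the 20 in that list 10 were above 0 and 10 below, with a median log2 fold change of -0.01, and edgeR called 0, with 3 higher and 3 lower at an unadjusted p under 0.05 (all genes tested: 5.69% higher, 6.46% lower), while DESeq2 called 1. Slbp, the stem-loop binding protein, averaged 228 ± 22.0 CPM in WT/mut (SD, n = 5) and measured 421, 241, 224 and 397 CPM in WT 1, 3, 4 and 5. The libraries WT 1 and WT 5, which were lowest in summed histone CPM, were the highest in Slbp. For Slbp edgeR gave -0.49 ± 0.19 (log2, SE; adjusted p = 0.340).

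Lsm10, a subunit of the U7 particle, differed by -0.54 ± 0.19 on the log2 scale (SE; edgeR, adjusted p = 0.329), and WT 1 was its highest library at 68.0 CPM. Lsm11, its partner in that particle, was at -0.05 ± 0.26, Npat at -0.05 ± 0.15 and Casp8ap2, which encodes a histone locus body protein, at 0.06 ± 0.14. Mif4gd, whose product binds Slbp and takes part in the translation of histone messages, measured 124, 80.8, 104, 103 and 109 CPM in WT/mut 6 to 10 and 148, 130, 131 and 130 CPM in WT 1, 3, 4 and 5. Its genotypes did not overlap, and edgeR estimated -0.37 ± 0.12 (log2, SE; adjusted p = 0.293).

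Zfp473, a zinc finger protein associated with the U7 particle, had 80, 147, 36, 41 and 0 counts in WT/mut 6 to 10 and 1, 0, 0 and 0 counts in WT 1, 3, 4 and 5. All but WT/mut 10 of the mutant libraries were above every WT library. Scaled to the library sizes of each group, the ratio of summed counts was 274, WT/mut over WT. Its counting interval of 48.8 to 10851 covers counting error only. The edgeR adjusted p was 0.137, and DESeq2, whose call is the one in the list above, gave an adjusted p of 0.000290.

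Replacement histones, most of which are made from polyadenylated messages outside S phase as well, were well represented and split in direction. Of 9 tested genes 5 were above 0 and 4 below, and edgeR called none. H3f3b averaged 1050 ± 188 CPM in WT/mut (SD, n = 5) and 1434 ± 500 CPM in WT (SD, n = 4), and H3f3a, which encodes the same H3.3 protein, 629 ± 91.0 and 539 ± 142 CPM. H2afz averaged 358 ± 28.1 and 394 ± 75.2 CPM, H2afx 60.9 ± 6.52 and 55.8 ± 7.10 CPM, and H1f0 147 ± 23.6 and 203 ± 70.0 CPM. The genotypes overlapped for all of these named genes.

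Of 22 histone chaperone genes tested 12 were above 0, and of 55 DNA replication genes 27 were, with medians of 0.03 and 0.00. The lowest p-values were those of Rbbp7 (-0.25 ± 0.11, log2 fold change ± SE) and Asf1a (-0.32 ± 0.16) among the chaperones, and of Rpa1 (-0.55 ± 0.17) and Uhrf1 (0.66 ± 0.21) among the replication genes. For none of these did the adjusted p by edgeR reach 0.05. Pcna, the polymerase clamp, had a log2 fold change of -0.11 ± 0.13 (SE) and Ccne2, an S-phase entry cyclin, 0.44 ± 0.32. The mitosis list had 27 of 29 above 0 (all genes tested: 50.2%) and a median of 0.46. Of the 29 edgeR called 0, with 6 higher at an unadjusted p under 0.05 (all genes tested: 5.69%). Bub1b (0.72 ± 0.26) and Ccnb2 (0.64 ± 0.25) had the lowest p. Without WT/mut 9 they stood at 0.51 and 0.43. The mitosis list then summed to 251 ± 20.5 CPM in WT/mut (SD, n = 4), against 219 ± 41.3 CPM in WT (SD, n = 4). Mki67, a marker of cycling cells, measured 30.9, 28.6, 25.04, 50.4 and 20.03 CPM in WT/mut 6 to 10 and 9.37, 12.2, 29.5 and 18.8 CPM in WT 1, 3, 4 and 5, again highest in WT/mut 9 (edgeR, adjusted p = 0.380).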

How the data were processed

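Poly(A) RNA of sorted Tfh cells was made into libraries with a non-stranded low-input SMART-Seq kit, per the labels' protocols. The authors used cutadapt 2.10, STAR 2.5.3, RSEM 1.3.0 and DESeq2 with the build mm10, per the submitters' processing notes, with no annotation release named in those sources. The deposited values are expected counts per gene, as RSEM estimates them. They were rounded to whole counts, and edgeR 4.0.16 in R 4.3.3 tested WT/mut against WT by quasi-likelihood (TMM factors, minimum count 10, minimum total 15, Benjamini-Hochberg adjustment over 15521 genes, threshold 0.05). SE is the log2 fold change over the root of F. CPM is TMM-scaled, and DESeq2 1.42.0 and limma-voom 3.58.1 were alternatives, as were other scalings, filters, covariates and leaving out each library. Only the edgeR fit was tested on simulated data, with changes placed in genes more abundant than most of the histone genes.

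The histone genes and lists were chosen with earlier results of these data known. Named with values were the 3 most abundant genes of each class and the 3 lowest p-values in each direction. So were genes with counts in 1 genotype only and 3 or more counts in all. From the lists, the 2 lowest p-values and genes fixed by name were added. Gene models are GENCODE M21, promoters RefSeq GRCm38.p6, matched within 1000 bases on the same strand.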

Additional observations from a re-analysis of the deposited data

Results flagged for a closer look

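Single libraries stood far from the rest of their group for 13 values, out of 128 groups tested for this, of which chance sets apart about 1 in 20. In WT/mut 9 these were the summed H2A level (107 CPM), Hist1h2ap (30.7 CPM), Hist1h2ae (20.9 CPM), Hist1h1b (8.94 CPM), the pseudogene Hist1h2aj (1.28 CPM) and the B cell transcription factor Spib (10.1 CPM). In WT 1 they were Mif4gd (148 CPM), Cst3 (135 CPM, a marker of myeloid and dendritic cells), Lsm10 (68.0 CPM), Ccnb2 (10.6 CPM) and Zfp473 (0.0317 CPM, a single count where the other WT libraries had none). Hist1h3a was high in WT 3 (0.743 CPM), and Hist2h2aa1 was found in WT/mut 10 alone (0.356 CPM).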

How the results depend on the processing

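No paired analysis was possible because the genotypes share no replicate numbers. In each alternative run, 0 histone genes were called. Under DESeq2 and without a filter, where all 67 were tested, 47 had a fold change above 0, as did 67.1% of all genes. With a minimum count of 3 the number was 36, where 54 were tested. It was 16 to 30 when 1 library was left out, with 31 to 42 histone genes tested. Their median log2 fold change was 0.58 with a covariate for plasma cell messages, -0.0056 to 0.28 when 1 library was left out, and -0.11 without WT/mut 7 and WT/mut 9 together, an alternative chosen after seeing the data. The plasma cell covariate did not overlap between genotypes, so it and genotype cannot be told apart in that fit. The cause of these shifts was not tested. When 1 library was left out, the log2 ratio of summed CPM ran from 0.12 to 0.44 for all histone genes, 0.08 to 0.56 for H1, 0.20 to 0.59 for H2A, -0.16 to 0.25 for H2B, -0.10 to 0.31 for H3 and 0.07 to 0.34 for H4.

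DESeq2 called 1 gene of the histone processing list, 2 Tfh markers, 1 germinal centre B cell marker, 4 plasma cell markers and 5 red cell markers, where edgeR called 0 (over all genes DESeq2 called 486 of 34361 and edgeR 19 of 15521), and leaving out 1 library gave 0 to 1 for plasma cell markers. Of 1017 alternative log2 fold changes for 54 named genes, 38 changed sign, over 14 genes, none of them called. With the plasma covariate these were Hist1h1c at -0.59, Hist2h2aa2 at 0.20, Hist2h3b at 1.04, Hist1h2bp at 0.99, Csf1r at -1.54 and Pcna at 0.17. With a covariate for detected genes they were Hist1h1c at -0.029, Hist2h3b at 0.085 and Hist4h4 at -0.031. With limma-voom they were Hist1h4n at -0.10 and Lsm11 at 0.051, and with the replication list as a covariate Hist1h4n at -0.10 and Lsm11 at 0.070. Leaving out 1 library gave -0.23 to 0.074 for Hist1h1e, -0.23 to 0.43 for Hist1h1c, -0.24 to 0.011 for Hist2h2aa2, -0.47 to 0.50 for Hist1h2bc, -0.58 to 0.17 for Hist2h3b, -0.045 to 0.24 for Hist4h4, -0.15 to 0.25 for Hist1h4n, -0.13 to 0.052 for Npat, -0.25 to 0.097 for Lsm11, -0.027 to 0.20 for Casp8ap2 and -0.22 to 0.074 for Tgfbr1.

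Depth limits the 31 untested histone genes, and shared sequence limits most single-gene values.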

Other observations

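The sorted cells' own markers included the gene of lowest p in the lists set beside the histone genes. That gene, Icos, a costimulatory receptor of Tfh cells, measured 830, 763, 749, 922 and 772 CPM in WT/mut 6 to 10 and 1038, 1150, 1226 and 1202 CPM in WT 1, 3, 4 and 5, so that every WT/mut library was below every WT library. Its log2 fold change by edgeR was -0.52 ± 0.09 (SE; adjusted p = 0.0721). Il21, the cytokine by which Tfh cells act on B cells, stood at -0.55 ± 0.12 (adjusted p = 0.142), and DESeq2 called both. Of the 9 Tfh markers tested 4 were above 0 and 5 below.

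Germinal centre B cell markers split, with 5 of 8 above 0. Mef2b, a transcription factor of germinal centre cells, differed by -0.87 ± 0.22 (log2, SE; edgeR, adjusted p = 0.207) and Nuggc by 2.31 ± 0.90 (adjusted p = 0.354). Among 7 myeloid and dendritic markers 4 were above 0, with Cst3 at -0.24 ± 0.14 and Csf1r at 0.94 ± 0.62, and edgeR called none.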
